A study of Mus musculus with 16 samples.

Results

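The genes described here are Fgf21, its co-receptor Klb, the FGF receptor genes Fgfr1, Fgfr2, Fgfr3 and Fgfr4, and Fgf1, a second FGF ligand made in liver. They were taken by their mouse Ensembl gene symbols, which gave 7 genes of the 35275 in the deposited table. RNA of whole mouse liver was sequenced in 16 libraries, 4 in each of 4 groups. WT mice carried Zfp36l1, the gene of a protein that binds AU-rich elements of messenger RNA, and LKO mice lacked it in the liver only. Each genotype was fed either a control diet or an ethanol diet, so the groups were WT control, WT ethanol, LKO control and LKO ethanol. The promoter of the deleting transgene, the age, sex and strain of the mice and the length of feeding are not given in the sources used here. All values are FPKM, fragments scaled to the length of the gene and to the counted fragments of the library. Levels can be compared between genes per length, within the limit of the lengths that were used.

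FGF21 is a hormone that the liver releases into the blood under nutrient and cellular stress. It signals in cells that carry the co-receptor beta-Klotho, the product of Klb, together with an FGF receptor, mostly the product of Fgfr1. Hepatocytes carry mainly the receptors encoded by Fgfr4, Fgfr3 and Fgfr2, and FGFR4 with beta-Klotho receives the gut hormone FGF15, which holds bile acid synthesis down. Proteins of the ZFP36 family bind AU-rich elements in the 3′ untranslated region of messenger RNAs and speed their decay.

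The 3′ untranslated region of Fgf21 is shown because the title of the study concerns the turnover of this transcript. It was 134 bases long in GENCODE M21 (GRCm38), 72.4% of them A or T, and held the AU-rich motif TATTTAT, read on the transcript strand, 4 times, starting at bases 42, 55, 64 and 68 from the stop codon, with the last pair overlapping. The only other member with this motif was Fgfr3, with 1 copy, at base 757 of 1508. Capitals mark the motif in the stretch of Fgf21 (chr7:45613950-45613978, minus strand) that holds the first 3 copies and in the site of Fgfr3 (chr5:33736309-33736331, plus strand).
Fgf21: TATTTATtacgggTATTTATctTATTTAT
Fgfr3: tgtaaagcTATTTATcaaccccc
Of 10469 tested genes with an annotated 3′ untranslated region, 27.3% held the motif at least once and 1.07% held it at least 4 times. In the first 134 bases of the region, 2.52% of 9770 genes had at least 1 copy and 4 genes, or 0.0409%, had at least 4. Klb, Fgfr1, Fgfr2, Fgfr4 and Fgf1 had none in the transcript examined. A match describes the letters only.

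The 250 bases before the start of Fgf21 are shown for a motif of the stress factor ATF4 and for a single E-box. An E-box is a part of the element of the carbohydrate-sensing factor ChREBP, and the full element was not searched. Target genes of both factors are described further on. The window was chr7:45615491-45615740 on the minus strand, from RefSeq promoters on GRCm38.p6. Capitals mark the motif TGATGNAA, found on the opposite strand at 139 to 132 bases before the start, and the E-box CACGTG, at 50 to 45 bases before it.
Fgf21 promoter: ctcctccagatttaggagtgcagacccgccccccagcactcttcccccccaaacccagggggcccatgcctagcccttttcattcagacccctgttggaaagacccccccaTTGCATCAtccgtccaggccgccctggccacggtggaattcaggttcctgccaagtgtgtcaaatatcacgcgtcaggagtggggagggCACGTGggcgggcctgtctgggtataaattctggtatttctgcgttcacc
Searched on both strands, TGATGNAA was in 3.45% and CACGTG in 6.02% of 32851 promoter windows of this length. Among the 5 members with a window, Fgf21 alone held either motif. Of 16 listed ATF4 target genes with a window, 5 held TGATGNAA and 2 held CACGTG in any of their windows. These counts are per gene and the shares above are per window, so they are not directly comparable.

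Zfp36l1 itself measured 9.30 to 25.5 FPKM in the 8 WT libraries and 0.572 to 1.76 in the 8 LKO libraries, so each library matched its genotype label. Total reads, worked out from the steps of the FPKM values, were 19069903 to 24768569 in 15 libraries. WT ethanol library 2 stood apart, with 9890475 reads. Of its reads 22.5% were on mitochondrial genes, against 3.64 to 6.97% in the others. Its Spearman correlation with them was 0.664 to 0.721, against 0.858 to 0.985 among them. It was also alone in the level of the Y-linked gene Ddx3y, at 1.43 FPKM against at most 0.0448. Xist, a gene of the X chromosome, was 6.62 FPKM in that library and 13.7 to 49.4 in the others. For the member results, the value without this library stands beside the main one where it moved by more than 1.5 times. Libraries 1 and 2 of each group also differed from libraries 3 and 4 on the leading component of the variation within groups, which held 40.0% of it. The labels name no batch, and WT ethanol library 2 was placed on neither side. They do not say that libraries came from separate mice, so p-values measure the spread between these libraries. The hepatocyte markers were high throughout, with 41860 to 74180 FPKM summed over 6 genes.

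Fgf21 was the member that varied most. In WT on the control diet its level was 3.95, 4.28, 37.2 and 8.05 FPKM in libraries 1 to 4. On the ethanol diet the WT libraries measured 16.2, 3.15, 55.3 and 48.9 FPKM. In LKO the values were 7.04, 6.48, 13.1 and 6.47 FPKM on the control diet. On the ethanol diet the LKO libraries reached 57.0, 113, 63.0 and 9.46 FPKM. Most ethanol libraries were thus well above most control libraries, but WT control library 3 was as high as ethanol libraries, WT ethanol library 2 was the lowest of all 16, and LKO ethanol library 4 was below LKO control library 3, so the groups overlapped in both genotypes.

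**Figure D1:**
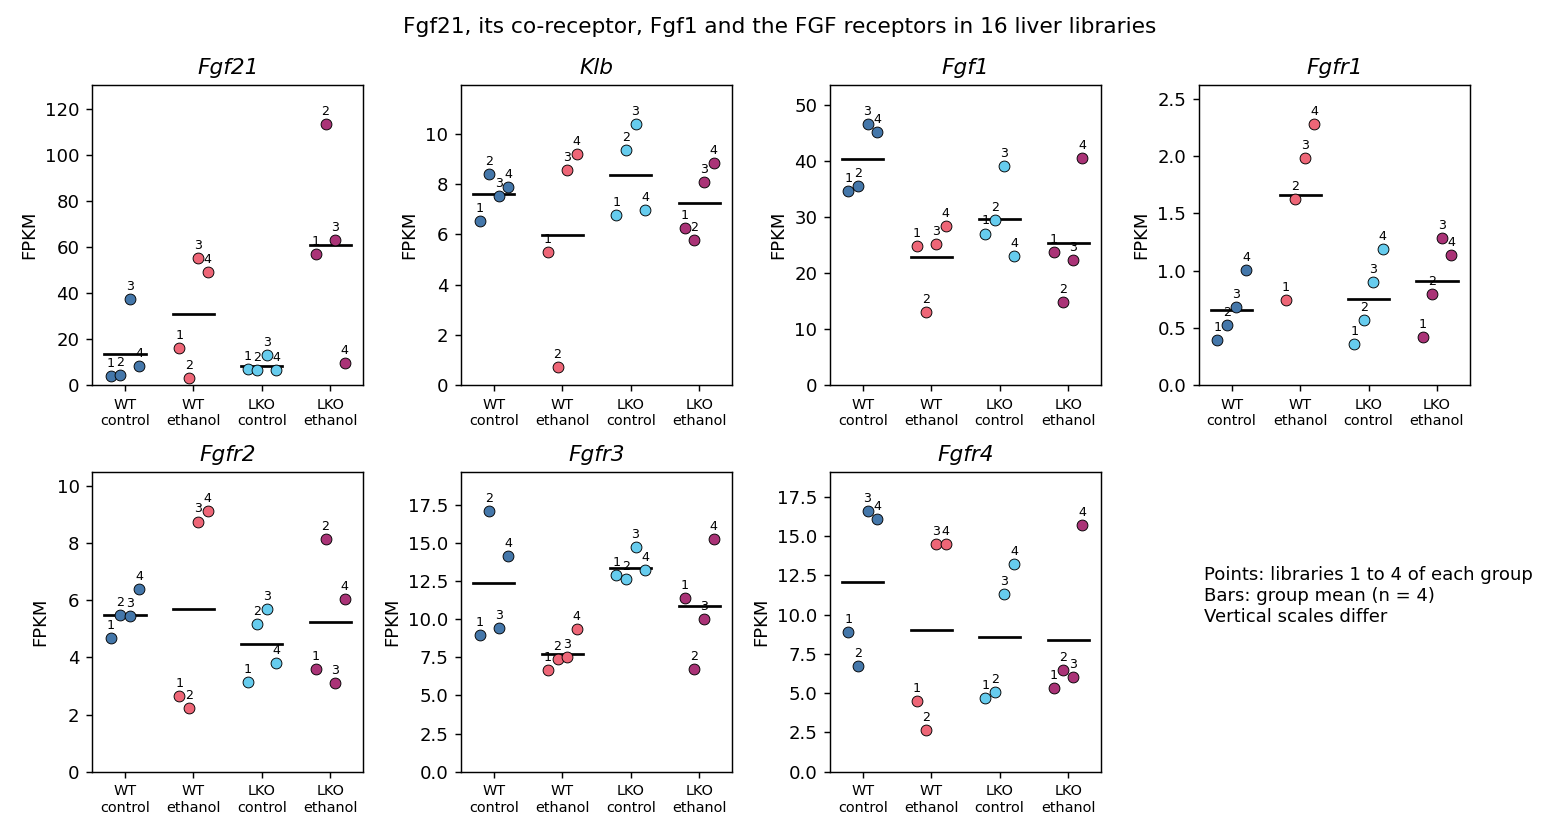
FPKM of the 7 genes in each library, 1 panel a gene with its own vertical scale from 0. Points are libraries 1 to 4 of a group and the bar is the group mean (n = 4). Fgf21 ranged from 3.15 to 113 FPKM, while the 4 ethanol and 4 control libraries of WT were fully apart for Fgf1 alone.

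The group means of Fgf21 were 13.4 ± 16 FPKM in WT control, 30.9 ± 25.2 in WT ethanol, 8.28 ± 3.25 in LKO control and 60.7 ± 42.5 in LKO ethanol (SD, n = 4 each). In order of means, LKO control was lowest and LKO ethanol highest, and no pair of neighbours in this order differed beyond its spread. The ratio of ethanol to control means was 2.31 in WT and 7.33 in LKO. On the log2(FPKM + 1) scale, which understates changes of low genes, the ethanol diet differed from the control diet by 1.12 (SE 0.82, 95% confidence interval −0.62 to 2.86, limma adjusted p = 0.48) in WT, and by 1.90 (limma adjusted p = 0.123) without WT ethanol library 2. Leaving out single libraries gave 0.65 to 1.90. The same difference in LKO was 2.36 (SE 0.82, 0.63 to 4.10, limma adjusted p = 0.297). Averaged over genotypes it was 1.74 (SE 0.58, 0.51 to 2.97), with an unadjusted p of 0.00818 in the limma fit and an adjusted p of 0.0774.

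None of these differences of Fgf21 passed the threshold of 0.05 after Benjamini-Hochberg adjustment over the 11298 genes tested, of which 4.18% did so for diet in WT, 0.425% for diet in LKO and 7.78% for diet averaged over genotypes. The averaged difference of Fgf21 did pass in 7 of 22 alternatives and was positive in all 22, from 1.51 to 2.13. Without WT ethanol library 2 it was 2.13 (limma adjusted p = 0.00918), without WT control library 3 it was 2.07 (limma adjusted p = 0.0339), and without LKO ethanol library 4 it was 2.10 (limma adjusted p = 0.0238). These are the 3 libraries that lay against the direction of the rest. Of all genes, 20.5%, 6.68% and 8.36% were called in these 3 fits, beside 7.78% with all libraries. In an exact two-sided permutation test the averaged difference had p = 0.0278, and p = 0.139 when adjusted over the 5 contrasts tested. The exact p was 0.314 for diet in WT and 0.0571 for diet in LKO, where the smallest p the design allows is 0.0286.

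The genotype comparison asked whether loss of Zfp36l1 went with another Fgf21 level. On the control diet the LKO value minus the WT value was −0.13 (SE 0.82, 95% confidence interval −1.86 to 1.61, limma adjusted p = 1.0), and on ethanol it was 1.12 (SE 0.82, −0.62 to 2.85, limma adjusted p = 0.62). The exact permutation p was 0.914 and 0.343. The ethanol-diet value was 0.33 (limma adjusted p = 0.814) without WT ethanol library 2, and single libraries left out gave 0.33 to 1.83. For the interaction, the LKO diet difference less the WT diet difference, Fgf21 gave 1.24 (SE 1.16, −1.21 to 3.70, limma adjusted p = 0.927), an interval that reaches to either side of 0. It was 0.46 (limma adjusted p = 0.973) without WT ethanol library 2, and leaving out single libraries gave 0.46 to 1.95. Few genes passed these tests at all, 0.00885% on the control diet, 0.0797% on the ethanol diet and 0.0% for the interaction. WT ethanol library 1 bore on this: without it 3.47% were called for genotype on ethanol and 0.0534% for the interaction. With a term for the side and WT ethanol library 2 left out, 1.54% were called for genotype on ethanol. The genotype difference of Fgf21 did not hold on both sides of the data's leading split. On the control diet it was 0.60 among libraries 1 and 2 and −0.86 among libraries 3 and 4. On the ethanol diet it was 2.24 among libraries 1 and 2, where WT had library 1 alone, and −1.03 among libraries 3 and 4. The diet difference had the same sign on both sides, at 1.75 and 1.51 in WT and 3.39 and 1.33 in LKO.

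**Figure D2:**
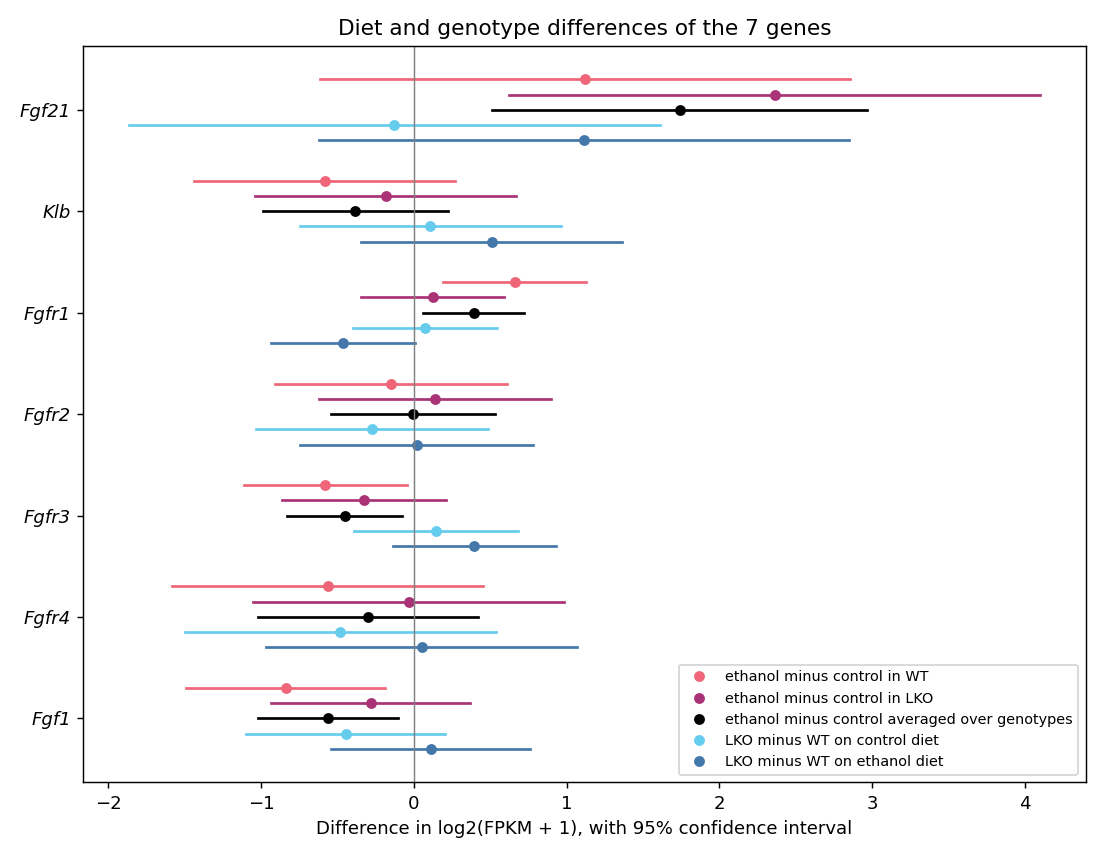
Differences in log2(FPKM + 1) between groups for each of the 7 genes, with 95% confidence intervals from limma (n = 4 a group). The interval of Fgf21 for diet averaged over genotypes ran from 0.51 to 2.97, while each of its genotype intervals crossed 0.

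Fgf21 reads in the low libraries were few but countable. WT ethanol library 2 had 29 reads of Fgf21, which gives 2.11 to 4.53 FPKM at 95% confidence by the exact Poisson method, for counting error only. LKO ethanol library 2, the highest, had 2222 reads. The spread of Fgf21 within groups, with an SD of 39.2 to 120% of the mean, was therefore far above counting error.

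Fgf21 is also made by exocrine pancreas, fat and muscle, so markers of these tissues were read beside it. The 5 exocrine pancreas markers summed to at most 1.45 FPKM in any library, with 2 or 3 of the 5 at 0 in every library of a group, and the 2 skeletal muscle markers summed to at most 0.671. Of the 3 adipose markers, Cidec, a lipid droplet protein that fatty liver also makes, was 2.19 to 4.30 FPKM in control libraries and 2.77 to 95.1 in ethanol libraries, while the defining fat-cell gene Adipoq was at most 0.0398.

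Some clock genes differed between the same libraries as Fgf21, and 14 of them were looked up after its values were seen. Dbp, a clock output gene, measured 23.4 to 58.6 FPKM in 7 of the 8 control libraries and 3.51 in WT control library 3, the one with high Fgf21. Arntl, the clock activator that peaks opposite to Dbp, was 0.201 to 0.432 FPKM in the same 7 libraries and 7.19 in library 3. In the ethanol groups Dbp was 0.791 to 28.1 and Arntl 0.696 to 2.78 FPKM, so 7 of the 8 ethanol libraries were below those 7 control libraries in Dbp and all 8 were above them in Arntl. Pearson's r with Fgf21 over the 16 libraries was −0.419 for Dbp and 0.495 for Arntl, and −0.672 and 0.497 without WT ethanol library 2, which was lowest in both Dbp and Fgf21. Over the 14 clock genes r ran from −0.482 for Per3 to 0.736 for Clock, and from −0.754 for Per3 to 0.705 for Clock without that library. For Per2, a clock repressor gene, it was −0.002 and −0.548, and for Nr1d1, another, −0.013 and −0.164. These are descriptions over libraries that share diet and genotype. Times of day of sampling and feeding are not given in the sources used here, and their part in the Fgf21 values was not tested.

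Fgf1 encodes a ligand that binds all FGF receptors, and it had the highest level of the 7 genes in 11 of the 16 libraries, Fgf21 being highest in the other 5. In WT it measured 34.6, 35.5, 46.6 and 45.2 FPKM on the control diet. On the ethanol diet it measured 24.8, 13.0, 25.2 and 28.4 FPKM. All 4 WT ethanol libraries were thus below all 4 WT control libraries, as happened in either direction for 10.1% of the genes tested. In LKO the values were 27.1, 29.5, 39.1 and 23.1 FPKM in control libraries and 23.8, 14.8, 22.3 and 40.6 in ethanol libraries, which overlapped. The diet difference of Fgf1 was −0.84 in WT (SE 0.31, 95% confidence interval −1.49 to −0.19, limma adjusted p = 0.134) and −0.28 in LKO (SE 0.31, −0.93 to 0.37, limma adjusted p = 0.921). The LKO value was −0.53 without LKO ethanol library 4 and −0.065 without LKO ethanol library 2. Averaged over genotypes it was −0.56 (SE 0.22, limma adjusted p = 0.13), and with a term for the side and WT ethanol library 2 left out it was −0.47 and passed (limma adjusted p = 0.0317). In that fit 32.7% of all genes were called for diet averaged over genotypes. No member other than Fgf1 had groups without overlap in any of the 4 pairwise comparisons, against 12.3% of genes for diet in LKO, 9.25% for genotype on the control diet and 2.69% for genotype on the ethanol diet.

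Klb, which encodes the co-receptor that FGF21 and FGF15 need, was among the steadiest of the 7. It measured 6.54, 8.39, 7.54 and 7.90 FPKM in WT control and 6.76, 9.34, 10.4 and 6.97 in LKO control. In LKO ethanol it measured 6.24, 5.79, 8.10 and 8.83 FPKM. In WT ethanol it was 5.31, 8.56 and 9.22 FPKM in libraries 1, 3 and 4, and 0.730, from 25 reads, in library 2, the only low value of the 16. The diet difference was −0.58 in WT (95% confidence interval −1.44 to 0.27, limma adjusted p = 0.453) and −0.18 in LKO (−1.04 to 0.67, limma adjusted p = 0.993). Without WT ethanol library 2 the WT difference was −0.01 (limma adjusted p = 0.984).

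Fgfr4, the main receptor gene for FGF15 in hepatocytes, differed more between libraries of a group than between groups. It measured 8.90, 6.76, 16.6 and 16.1 FPKM in WT control and 4.51, 2.65, 14.5 and 14.5 in WT ethanol. In LKO it measured 4.72, 5.10, 11.3 and 13.2 FPKM in control libraries and 5.32, 6.48, 6.06 and 15.7 in ethanol libraries. Libraries 3 and 4 were above libraries 1 and 2 in every group but LKO ethanol, where library 3 was low. Over the sides the median was 5.32 FPKM in 7 libraries and 14.5 in 8. The diet difference was −0.56 in WT (95% confidence interval −1.58 to 0.45, limma adjusted p = 0.554) and −0.03 in LKO (−1.05 to 0.98, limma adjusted p = 1.0), and the WT interval includes a difference of 1 in log2 units in the downward direction. The WT difference of Fgfr4 was −0.17 (limma adjusted p = 0.853) without WT ethanol library 2.

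Fgfr3, which hepatocytes also carry, had the highest level of the 4 receptor genes in 9 of the 16 libraries and Fgfr4 in 6. This rank depends on the lengths behind the FPKM, 4245 bases for Fgfr3 and 3324 for Fgfr4. All annotated exons span 7158 and 3542 bases. Fgfr3 measured 8.93, 17.1, 9.40 and 14.2 FPKM in WT control and 6.69, 7.38, 7.54 and 9.36 in WT ethanol. In LKO it measured 12.9, 12.7, 14.7 and 13.2 FPKM in control libraries and 11.4, 6.71, 10.01 and 15.3 in ethanol libraries. WT ethanol libraries were the lowest set, but the highest of them exceeded the lowest WT control library. The diet difference was −0.58 in WT (SE 0.25, 95% confidence interval −1.11 to −0.04, limma adjusted p = 0.217) and −0.33 in LKO (SE 0.25, −0.86 to 0.21, limma adjusted p = 0.819). Averaged over genotypes it was −0.45 (limma adjusted p = 0.14), and with the side term and WT ethanol library 2 left out it was −0.46 and passed (limma adjusted p = 0.0396), beside 32.7% of all genes.

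Fgfr2 encodes a receptor that bile duct cells carry too. It measured 4.69, 5.47, 5.44 and 6.38 FPKM in WT control and 3.15, 5.18, 5.67 and 3.82 in LKO control. On the ethanol diet it was 2.63, 2.21, 8.75 and 9.12 FPKM in WT and 3.58, 8.15, 3.11 and 6.04 in LKO, so both ethanol groups spread to either side of their controls. Its diet differences were −0.15 in WT and 0.14 in LKO, with limma adjusted p of 0.851 and 0.995 and 95% confidence intervals of −0.91 to 0.61 and −0.62 to 0.90. The WT difference turned to 0.14 (limma adjusted p = 0.836) without WT ethanol library 2.

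Fgfr1, the receptor gene through which FGF21 acts in fat and brain, was the lowest of the 7 and passed the filter on low values with 7 libraries at 1 FPKM or more, 3 of them WT ethanol libraries. It measured 0.395, 0.524, 0.684 and 1.009 FPKM in WT control and 0.744, 1.62, 1.99 and 2.28 in WT ethanol. In LKO it measured 0.357, 0.569, 0.897 and 1.18 FPKM in control libraries and 0.417, 0.799, 1.28 and 1.14 in ethanol libraries. WT ethanol libraries 2, 3 and 4 were above all WT control libraries, and library 1 was within their range. The diet difference was 0.66 in WT (SE 0.22, 95% confidence interval 0.19 to 1.13, unadjusted p = 0.0086 and adjusted p = 0.104 in limma) and 0.12 in LKO (SE 0.22, −0.35 to 0.59, limma adjusted p = 0.984). The pseudocount of 1 holds down the change of so low a gene: with 0.1 the WT difference was 1.19 (limma adjusted p = 0.155), and with voom on the recovered reads it was 1.21 (limma adjusted p = 0.121). The genotype difference on the ethanol diet was −0.46 (limma adjusted p = 0.425) and the interaction −0.54 (limma adjusted p = 0.927). Without WT ethanol library 1 the WT difference was 0.85 and passed (limma adjusted p = 0.0221), beside 8.28% of all genes there and 4.18% with all libraries. The averaged difference was then 0.49 and passed too (limma adjusted p = 0.0414), beside 9.74% of all genes. With the side term and WT ethanol library 2 left out it was 0.57 and also passed (limma adjusted p = 0.0154), beside 19.7% of all genes. In this second fit the averaged difference, 0.35, passed too (limma adjusted p = 0.0154), beside 32.7% of all genes, against 0.39 (limma adjusted p = 0.145) with all 16 libraries and no side term. Other liver cells also carry Fgfr1: the 6 stellate cell markers, none of them at 0, summed to 48.6 to 150 FPKM in WT control and 16.4 to 174 in WT ethanol, where library 2 alone gave the low end. Of these, Des, an intermediate filament gene, was 0.866 to 1.45 FPKM in WT control and 1.58 to 5.075 in WT ethanol, without overlap, as for 10.1% of all genes tested. Col1a1, a collagen gene, was at most 1.83 FPKM in WT control, and 0.416, 0.546, 7.01 and 12.4 in WT ethanol, where libraries 3 and 4 also had the highest Fgfr1. Both were picked from the markers after their values were seen. Col1a1 and the other 4, Colec11, Dcn, Lrat and Reln, overlapped between the WT diets. The part of these markers in the Fgfr1 values was not tested. In whole tissue, fewer cells of a type and less RNA per cell cannot be told apart.

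Across the 6 contrasts, none of the 7 members was called in the limma fit. At an unadjusted p under 0.05 were Fgf21 for diet in LKO and averaged, Fgfr1, Fgfr3 and Fgf1 for diet in WT and averaged, and no member for any genotype contrast. Such p-values were common in this limma fit, in 19.7% of all genes for diet in WT, 9.19% for diet in LKO and 21.6% for diet averaged.

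The 4 receptor genes together give the receptor make-up of each library, as a share of their summed FPKM. Fgfr3 and Fgfr4 made most of it in each group, with 40.8 ± 11.8% and 39.0 ± 12.1% in WT control, 37.2 ± 14.7% and 33.9 ± 11.4% in WT ethanol, 50.5 ± 8.65% and 30.2 ± 9.92% in LKO control, and 43.6 ± 10.8% and 31.4 ± 6.72% in LKO ethanol (SD, n = 4). Fgfr2 gave group means of 16.6 to 21.7%. The share of Fgfr1 was 2.07 ± 0.446% in WT control and 7.33 ± 2.98% in WT ethanol, where libraries ran from 5.10 to 11.7% against 1.73 to 2.68% in the control libraries. The 11.7% was WT ethanol library 2, and the others were 5.10, 6.06 and 6.46%. The summed receptor FPKM was 14.59, 13.87, 32.75 and 35.29 in WT ethanol libraries 1 to 4, against 22.91 to 37.62 in WT control. The share of Fgfr1 was not tested, and the FPKM of Fgfr1 itself overlapped. In LKO the shares of Fgfr1 were 2.66 ± 0.863% and 3.72 ± 1.82% and overlapped.

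**Figure D3:**
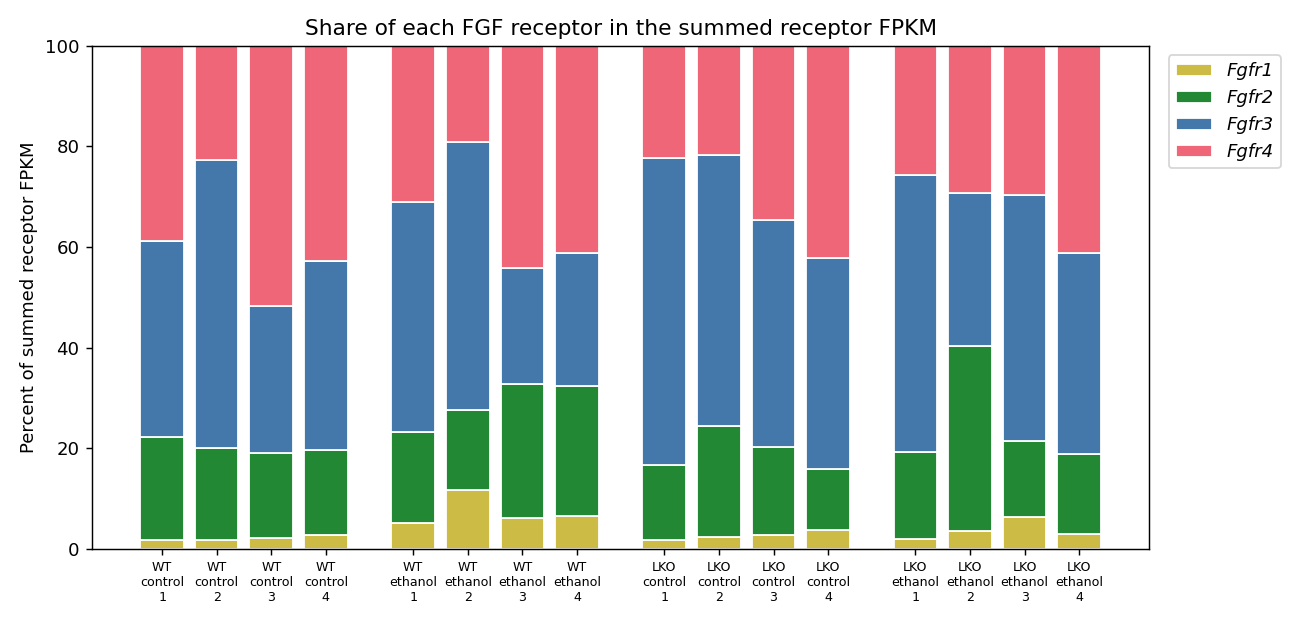
Share of Fgfr1, Fgfr2, Fgfr3 and Fgfr4 in their summed FPKM, 1 bar a library. Fgfr3 and Fgfr4 fill most of each bar. The share of Fgfr1 was 5.10 to 11.7% in WT ethanol, highest in library 2, against 1.73 to 2.68% in WT control. The share of Fgfr1 was not tested.

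The share of Fgfr4 did not differ between groups beyond the spread. Ethanol minus control was −5.13 percentage points in WT and 1.22 in LKO, with exact permutation p of 0.571 and 0.886. LKO minus WT was −8.78 percentage points among control libraries and −2.43 among ethanol libraries, with exact permutation p of 0.257 and 0.686. Without WT ethanol library 2 the diet difference in WT was −0.20 percentage points and the genotype difference on ethanol −7.35. All 4 had an adjusted p of 0.886 by exact permutation. By side of the data's split, the median share of Fgfr4 was 25.7% in 7 libraries and 41.6% in 8. On these sides in turn, LKO minus WT was −8.72 and −8.84 percentage points on the control diet. On ethanol it was −3.48, with WT library 1 alone, and −7.31. Ethanol minus control was 0.21 and −4.53 percentage points in WT and 5.45 and −3.00 in LKO. The differences by side were not tested.

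The other ligands of the family were at or near 0. Of 20 other Fgf genes, 6 were at 0 in all libraries and none passed the filter, and outside WT ethanol library 2 the highest value of any was 0.458 FPKM. In that library 10 of the 20 had their highest value, up to 3.90 FPKM. Fgfrl1, the decoy receptor gene that binds ligand without signalling, was the only 1 of 3 Klotho relatives and decoys to pass the filter. It measured 9.66, 17.0, 10.4 and 19.1 FPKM in WT control and 4.93, 0, 13.2 and 6.84 in WT ethanol, the 0 in library 2. In LKO it measured 22.9, 22.0, 34.8 and 30.5 FPKM in control libraries and 22.0, 12.7, 27.1 and 16.3 in ethanol libraries. On the control diet LKO and WT did not overlap, as for 9.25% of genes. The diet difference of Fgfrl1 was −1.51 in WT (limma adjusted p = 0.139) and −0.73 (limma adjusted p = 0.165) without WT ethanol library 2, and it was −0.50 in LKO (limma adjusted p = 0.922). It was called lower in WT and averaged without WT ethanol library 3, beside 3.57% and 7.58% of all genes. With the side term and WT ethanol library 2 left out it was called lower averaged over genotypes, beside 32.7%. LKO minus WT was 0.96 on the control diet (limma adjusted p = 1.0). On ethanol it was 1.97 (limma adjusted p = 0.22), and 1.18 (limma adjusted p = 0.134) without WT ethanol library 2. With the side term as well it was 1.25 and passed (limma adjusted p = 0.0464), beside 1.54% of all genes. Fap, the gene of the protease that inactivates FGF21, did not pass the filter.

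Of 18 tested genes of the receptor adaptors and the kinase cascade, none was called in any contrast of the limma fit. Their median diet difference averaged over genotypes was 0.01, beside 0.02 for all genes tested. Nras, a small GTPase of the cascade, had the smallest p, with a difference of 0.54 (limma adjusted p = 0.0738). For diet averaged over genotypes, 1 gene of the list was called higher with median-of-ratios scaling, quantile normalization or voom. In these fits 11.9%, 12.8% and 11.7% of all genes were called. Without WT ethanol library 2, 3 genes of the list were called higher, beside 20.5% of all genes. With the side term and that library left out, 5 were called higher and 1 lower, beside 32.7% of all genes.

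Transcripts that FGF receptor signalling induces, feedback inhibitors among them, were higher on ethanol in 2 cases. Egr1, an immediate early transcription factor, measured 3.54 ± 2.37 FPKM in WT control and 13.6 ± 8.46 in WT ethanol, and 2.76 ± 2.04 and 13.5 ± 5.12 in LKO (SD, n = 4). It rose averaged over genotypes, by 1.83 (SE 0.37, limma adjusted p = 0.00577). Etv5, an ETS factor downstream of FGF signalling, rose by 0.64 on average (SE 0.16, limma adjusted p = 0.0227). Of 8 tested genes of the list these 2 were called, and all 8 had a positive difference in both genotypes. The share of all genes called was 7.78%, and the list had a median of 0.53 beside 0.02 for all genes. Without WT ethanol library 2, 7 of the 8 were called higher, beside 20.5% of all genes, and 7 were with the side term as well, beside 32.7%. Without LKO control library 1, LKO ethanol library 2 or the filter on low values, 1 was, beside 5.33%, 4.48% and 2.63% of all genes. None was called in WT alone, in LKO alone or for genotype in the limma fit of all libraries. In WT 1 was called without WT ethanol library 1, WT ethanol library 2 or LKO ethanol library 2. Of all genes 8.28%, 9.27% and 4.7% were called for diet in WT in these fits.

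**Figure D4:**
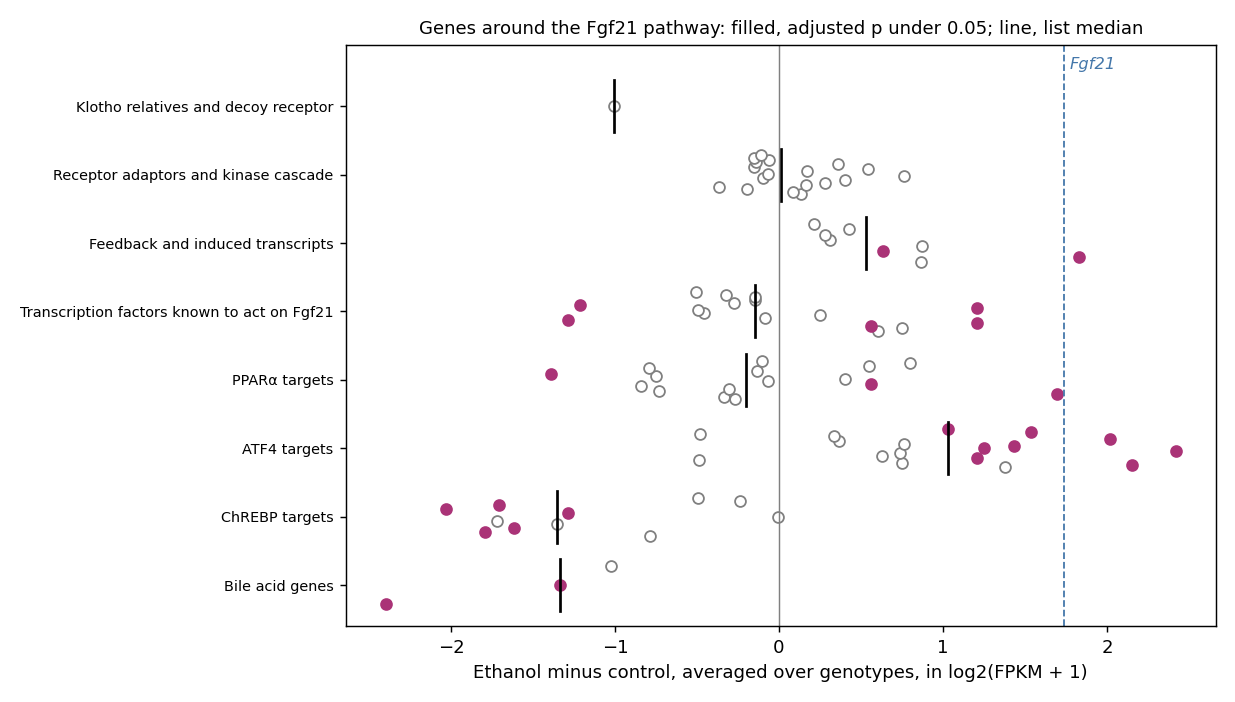
Ethanol minus control diet, averaged over genotypes, in log2(FPKM + 1) for each tested gene of 8 lists around the Fgf21 pathway. Filled points had an adjusted p under 0.05 in limma, the black line is the list median and the dashed line is Fgf21 at 1.74.

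Transcription factors known to act on Fgf21 moved both ways. Of 16 tested, 3 rose and 2 fell with ethanol averaged over genotypes, beside 7.78% of all genes called, and their median difference was −0.15. Of the 16, 5 rose and 2 fell without WT ethanol library 2, beside 20.5% of all genes, and 4 rose and 4 fell with quantile normalization, beside 12.8%. Ddit3, the stress factor CHOP, rose by 1.21 (SE 0.22, limma adjusted p = 0.00285), Nr4a1, an immediate early nuclear receptor, by 1.21 (SE 0.30, limma adjusted p = 0.0201). Ppara, which encodes the fasting-response receptor that drives Fgf21, measured 44.4 ± 7.58 FPKM in WT control and 21.8 ± 12.1 in WT ethanol, and 34.9 ± 10.3 and 16.3 ± 11.6 in LKO (SD, n = 4). It fell averaged over genotypes, by 1.22 on the log2 scale (SE 0.32, limma adjusted p = 0.0294), and was called in neither WT nor LKO alone (limma adjusted p = 0.148 and 0.366). Mlxipl, the gene of ChREBP, differed by −1.29 (SE 0.34, limma adjusted p = 0.027). Creb3l3, which encodes a membrane-bound factor that acts with PPARα on Fgf21, was the third gene that rose. The 2 falls were lost without LKO control library 2, 3 or 4, LKO ethanol library 2 or WT control library 4. The share of all genes called there was 4.48 to 5.32%. Without the filter on low values the falls were lost too, beside 2.63%. Without LKO ethanol library 2, 1 gene of the list rose.

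Targets of 3 of these factors were then counted. Of 17 ATF4 targets, genes of amino acid supply and the stress response, 8 rose with ethanol averaged over genotypes and none fell, beside 7.78% of all genes called, with a median of 1.03 beside 0.02 for all genes. With the side term and WT ethanol library 2 left out, 13 rose and 1 fell of 16 tested, beside 32.7% of all genes. Nupr1, a stress-induced chromatin protein gene, rose by 1.44 (SE 0.20, limma adjusted p = 0.000602), Atf3, a stress-induced repressor gene, by 2.15 (SE 0.36, limma adjusted p = 0.0019), and Vldlr, a lipoprotein receptor gene, by 1.03 (SE 0.19, limma adjusted p = 0.003). In WT alone 8 rose, beside 4.18% of all genes called, but 1 did without WT control library 2, 2 without WT control library 4, 3 without WT control library 1 or WT ethanol library 4, 4 without WT ethanol library 3 and 5 without WT control library 3, and 2 did without the filter on low values. The share of all genes called in WT was 1.29 to 3.57% without those libraries and 1.16% without the filter. In LKO alone none was called, beside 0.425% of all genes, and the interaction was called for none, so a difference between genotypes was not shown. Fgf21, itself a known ATF4 target, was left out of this list. Atf5 and Ddit3 were in it and also among the factors counted above, so the counts of these lists overlap.

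Of 16 PPARα targets, 2 rose and 1 fell averaged over genotypes, beside 7.78% of all genes called, with a median of −0.20. With the side term and WT ethanol library 2 left out the counts were 3 and 4, beside 32.7% of all genes. They were 1 and 2 with median-of-ratios scaling, beside 11.9%. Fabp1, a fatty acid carrier of hepatocytes, fell by 1.39 on the log2 scale (limma adjusted p = 0.00348), while Acot2, a mitochondrial thioesterase gene, rose by 1.70 (limma adjusted p = 0.0131), and the other riser was Creb3l3. Leaving out single libraries gave 1 to 3 genes that rose and 1 or 2 that fell, in fits where 4.48 to 20.5% of all genes were called. Of 11 ChREBP targets and partners, 5 fell and none rose, beside 7.78% of all genes called and with a median of −1.35. Among the 5 were Acly and Elovl6 of fatty acid synthesis, Pklr of glycolysis and Mlxipl, which was counted among the factors above too. The count of falls was 0 without the filter on low values, WT control library 4 or LKO ethanol library 2. In these fits 2.63%, 4.88% and 4.48% of all genes were called. The count was 2 without WT control library 2 or LKO control library 1, 3 or 4, beside 5.24 to 5.33% of all genes. Without LKO control library 2 it was 3, beside 4.93%.

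The bile acid list held Cyp7a1 and Cyp8b1, enzyme genes that FGFR4 with beta-Klotho is known to repress through FGF15, and Nr0b2, the gene of the co-repressor SHP. Both enzyme genes fell with ethanol in WT and averaged over genotypes, and Nr0b2 was not called, with an averaged difference of −1.02 (limma adjusted p = 0.061). Nr0b2 was called in some alternatives, with −1.04 under median-of-ratios scaling (limma adjusted p = 0.0489) and −1.03 under quantile normalization (limma adjusted p = 0.0456). Of all genes 11.9% and 12.8% were called in these fits. Cyp7a1, the rate-limiting enzyme of bile acid synthesis, measured 86.0 ± 39.7 FPKM in WT control and 10.2 ± 7.91 in WT ethanol (SD, n = 4), a difference of −3.19 (SE 0.66, limma adjusted p = 0.0139), and in LKO it measured 61.4 ± 7.13 and 35.3 ± 47.7 FPKM. Cyp8b1, which sets the type of bile acid made, differed by −1.99 in WT (SE 0.44, limma adjusted p = 0.0193). The WT call of Cyp8b1 was lost without the filter on low values (limma adjusted p = 0.0503) and without WT control library 2, WT control library 3 or WT ethanol library 4. That of Cyp7a1 was lost without WT control library 1 (limma adjusted p = 0.0528). In the fits that lost a WT call, 1.16 to 2.87% of all genes were called for diet in WT. With all libraries and the filter it was 4.18%. In LKO neither was called, with differences of −1.61 for Cyp7a1 and −0.68 for Cyp8b1 (limma adjusted p = 0.445 and 0.74). Averaged over genotypes the differences were −2.40 for Cyp7a1 (limma adjusted p = 0.00459) and −1.34 for Cyp8b1 (limma adjusted p = 0.015). Fgfr4 and Klb, measured in the same libraries, had no called difference.

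The 6 protein-coding genes whose levels over the 16 libraries were most like those of Fgf21 were Ets2, P4ha2, Ccdc71l, Tsc22d2, Morc4 and Aebp2, by Pearson's r of log2(FPKM + 1). Their r was 0.896, 0.893, 0.885, 0.881, 0.876 and 0.874, a description over libraries that share diet and genotype. Ets2, an ETS transcription factor gene, measured 7.73 ± 1.80, 14.01 ± 7.20, 6.57 ± 1.45 and 16.8 ± 8.22 FPKM in WT control, WT ethanol, LKO control and LKO ethanol. P4ha2, a collagen prolyl hydroxylase gene, stayed among the top 6 by each of the measures tried: Spearman's rho, Pearson's r without WT ethanol library 2, and deviations from group means. Of the 6, 3 were also in the top 6 by Spearman's rho, 3 without WT ethanol library 2, and 1 by the deviations. By Spearman's rho, Dusp6, the feedback phosphatase that ends ERK signalling, was the third, at 0.918. Among the members, Fgfr3 had the lowest r with Fgf21, −0.451, and Fgfr2 the highest, 0.394. When WT ethanol library 2 was left out, Fgfr3 was again lowest, at −0.63, and Fgfr1 highest, at 0.427. The r of Klb was 0.269 over 16 libraries and −0.152 without that one. By deviations from group means, over all 16 libraries, Klb was highest, at 0.538.

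**Figure D5:**
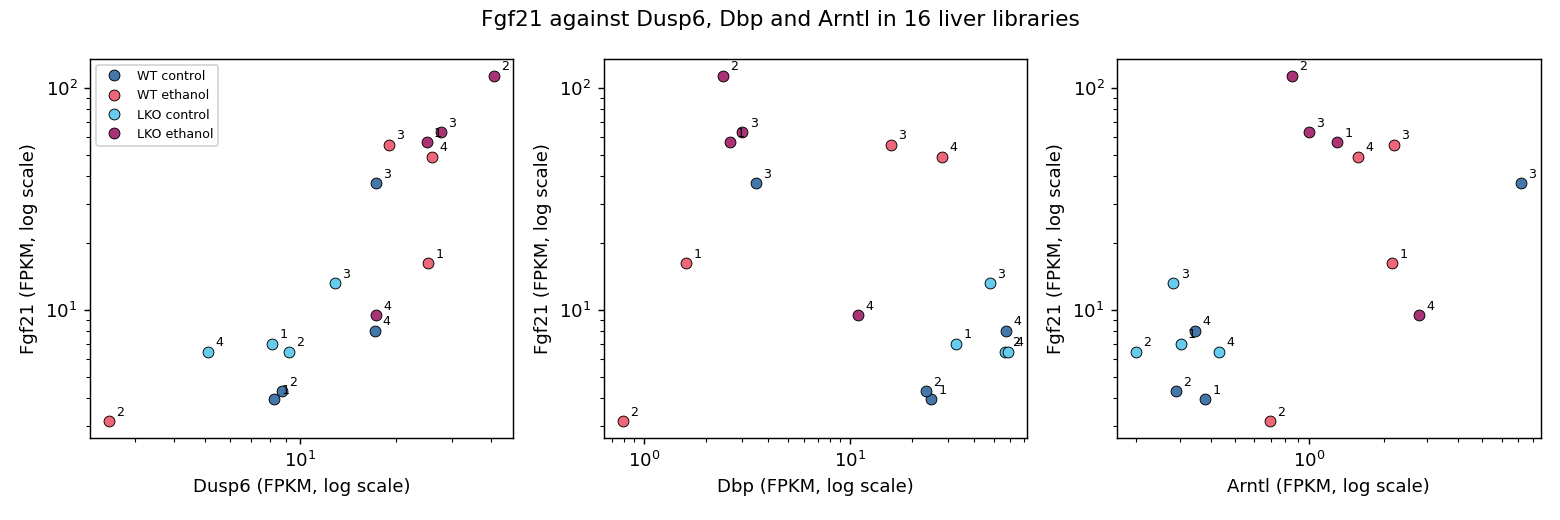
Fgf21 against Dusp6, Dbp and Arntl, both axes in FPKM on log scales, 1 point a library with its number and the group by colour. Dusp6 and Fgf21 were lowest in WT ethanol library 2, at 2.50 and 3.15 FPKM, and highest in LKO ethanol library 2, at 40.9 and 113, and WT control library 3 has low Dbp and high Arntl.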

How the data were processed

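The authors deposited 1 table of FPKM values, 1 column a library, for mouse liver RNA, and each column was joined to its sample by the sample title. The submitters' processing notes name fastp, STAR 2.6.1, HTSeq, DESeq2 and the build mm10, with no role or order, and strandedness is not given in the sources used here. Reads of overlapping or antisense genes can therefore not be told apart. Whole reads were worked out from the steps of the FPKM values, with 100.0% of values within 0.1 of a whole read, for genes above 0.

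Genes with at least 1 FPKM in at least 4 libraries were kept (11298), and log2(FPKM + 1) was fitted over the 4 groups with limma 3.58.1 in R 4.3.3 (empirical Bayes with a trend), with Benjamini-Hochberg adjustment over all genes kept and a threshold of 0.05. Exact permutation tests were run on Fgf21 and on the Fgfr4 share. The procedure was tested on simulated data. The members, the lists and the naming rule were chosen with earlier results of these data known. All members were named; for each list and contrast up to 4 called genes with the smallest adjusted p, or up to 2 by unadjusted p where none was called; and the 6 genes most like Fgf21. Alternatives were another pseudocount (0.1), no filter, other scalings, voom on the recovered reads, leaving out each library, and a term for the side of the data's leading split.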

Additional observations from a re-analysis of the deposited data

Results flagged for a closer look

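Within each group of 4 libraries, a value was looked at again when its gap to the nearest other value, divided by the range of the group, exceeded Dixon's 95% critical value for 4 values. Of 32 such checks 3 exceeded it, and chance alone does so in about 5.0% of groups. Fgf21 in WT control library 3 was 37.2 FPKM, far above the other 3 libraries of its group (gap over range 0.877). Fgf21 in LKO control library 3 was 13.1 FPKM, above the other 3 at 6.47 to 7.04 (gap over range 0.914). Fgfr4 in LKO ethanol library 4 was 15.7 FPKM, above the other 3 at 5.32 to 6.48 (gap over range 0.889).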

How the results depend on the processing

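The Fgf21 difference for diet averaged over genotypes passed the threshold with median-of-ratios scaling (1.71), quantile normalization (1.75), voom on the recovered reads (1.92) and with a term for the side and WT ethanol library 2 left out (2.09). Of all genes 11.9%, 12.8%, 11.7% and 32.7% were called in these fits, beside 7.78%. The difference ranged from 1.51 to 2.13 when single libraries were left out. The Fgf21 diet difference in LKO passed in the last of these alone (2.36), beside 10.8% of all genes. The Fgf21 genotype difference on the control diet turned to 0.00395 with voom and ranged from −0.45 to 0.53 without single libraries, where leaving out WT control library 3 turned it. With the side term and without WT ethanol library 2, these differences also turned sign: Klb −0.018, Fgfr2 −0.22, Fgfr4 −0.17 and Fgf1 −0.072 for genotype on ethanol, and Fgfr2 0.088 for diet in WT and 0.11 for diet averaged.

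Leaving out single libraries turned the sign of small differences, over these ranges. For genotype on ethanol they were −0.063 to 0.79 for Klb, −0.27 to 0.28 for Fgfr2, −0.35 to 0.35 for Fgfr4 and −0.14 to 0.33 for Fgf1. For genotype on the control diet Fgfr1 ranged from −0.04 to 0.19. For diet, Fgfr2 ranged from −0.42 to 0.14 in WT, −0.071 to 0.31 in LKO and −0.14 to 0.14 averaged, and Fgfr4 from −0.35 to 0.20 in LKO. Without single libraries the Fgfr4 diet difference in WT stayed negative, from −0.86 to −0.17. Diet differences in LKO also kept their sign for Fgfr3, from −0.50 to −0.14, Klb, from −0.27 to −0.081, and Fgfr1, from 0.0084 to 0.26. The share of Fgfr4 ranged from −2.02 to 5.19 percentage points for diet in LKO, from −10.6 to −0.20 for diet in WT, from −14.2 to −4.54 for genotype on the control diet and from −7.35 to 1.03 for genotype on ethanol. None of these passed a test, and the cause was not tested. Of the values of member differences under alternatives, 743 kept sign and side of the threshold, 14 passed it where they had not before and 35 turned sign. No paired analysis was made. The labels give no shared replicate numbers, and the titles hold numbers, some of them consecutive across diets within a genotype, whose meaning the labels do not state, so no pairs were formed from them. The lowest values of Klb, Fgf21 and Fgfr1 rest on 25, 29 and 41 reads, which limits their precision.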
